A study of Mus musculus with 2 samples.

Results

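The 10 genes described here belong to the Notch pathway: the receptors Notch1, Notch2 and Notch3, the ligands Jag1, Jag2 and Dll1, the nuclear effectors Rbpj and Maml1, and the targets Hes1 and Hey1. They were taken by symbol from a deposited expression table of 23233 genes, and all 10 were found, each listed once. The samples were ZIP10-positive and ZIP10-negative cells from the ventral skin of 7-day-old wild-type C57BL/6 mice, with 1 RNA-seq library per population. ZIP10 is a zinc importer encoded by Slc39a10, and the cells were separated by flow cytometry after staining with an antibody against it. The sample titles speak of hair follicles, whereas the protocol starts from digested whole ventral skin, and neither the number of mice nor a sort on any lineage marker is given. With no replicate there is no test of the difference between the populations, and all comparisons describe these libraries.

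Notch receptors sit in the membrane and are switched on by Jagged or Delta-like ligands on a neighbouring cell. The receptor is then cut by an ADAM protease and by gamma-secretase, and its freed intracellular part joins RBPJ and a Mastermind protein on DNA to activate targets such as the HES and HEY repressors. In skin the pathway is known for its part in the exit of epidermal cells from the basal layer and in the differentiation of hair follicle lineages, and in vessels for its part in endothelial and mural cells.

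The authors deposited RPKM, a read number per gene that is corrected for the length of the transcript and the depth of the library. The libraries were shallow, at an estimated 2.78e+06 reads for ZIP10-positive and 2.71e+06 reads for ZIP10-negative cells, so that 1 read on a 5000-base transcript is worth 0.0750 RPKM. Slc39a10 stood at 49.4 RPKM in ZIP10-positive cells, against 11.1 RPKM in ZIP10-negative cells. Its ratio as deposited, 4.43, has the direction of the labels and lies above the median ratio given below. The zero point of the comparison is uncertain. Over the genes that reached 1 RPKM in each library the median ratio was 1.97, a log2 ratio of 0.98, and globins took 3.46% of all RPKM in ZIP10-positive cells but 59.4% in ZIP10-negative cells. Each gene is therefore given as deposited and relative to that median, called the median gene. Log2 ratios are of RPKM + 1, a pseudocount that shrinks the differences of scarce transcripts, and plain ratios carry none. Exact 95% counting intervals come from estimated read numbers and cover counting error only, not the spread between animals or sorts.

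All 10 genes reached 1 RPKM in both libraries, at 1.75 to 20.2 RPKM in ZIP10-positive and 1.14 to 10.9 RPKM in ZIP10-negative cells. As deposited, 9 were higher in ZIP10-positive cells and 1, Maml1, was marginally lower. How many of all genes were higher was not counted. Only Jag2 was at least 2-fold higher and none was 2-fold lower, where 44.1% of the 12249 genes compared were 2-fold higher and 3.55% were 2-fold lower. The median log2 ratio of the 10 genes was 0.56, beside 0.87 over all genes compared. Relative to the median gene 3 lay above 0 and 7 below, and none was 2-fold apart in either direction, where 14.7% of all genes were 2-fold higher and 11.4% were 2-fold lower. On that scale the median of the 10 was -0.25, beside 0.09 over all genes compared.

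**Figure D1:**
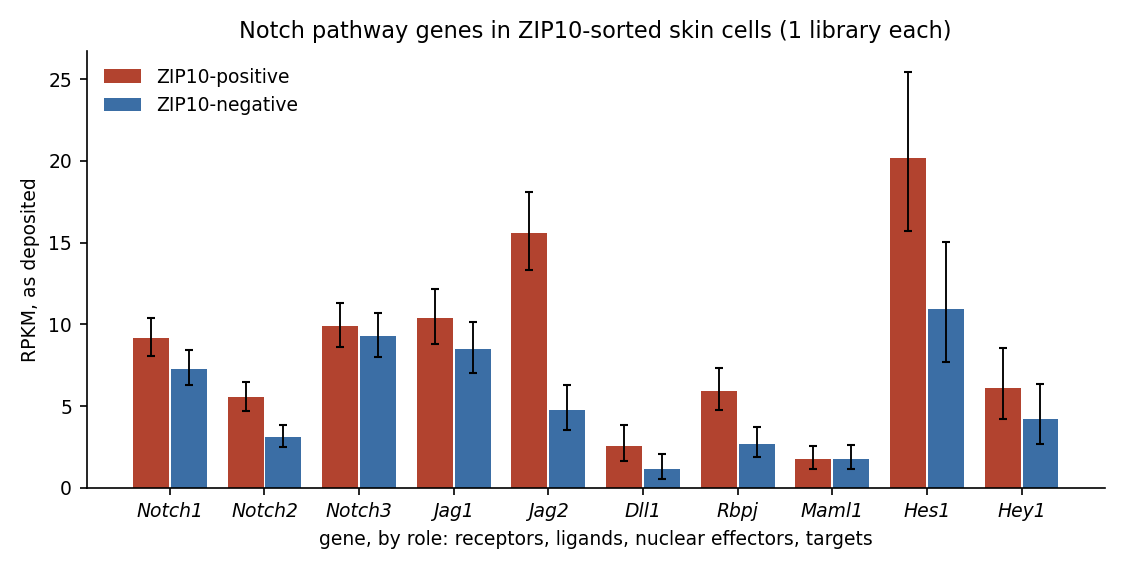
RPKM of the 10 Notch pathway genes in the ZIP10-positive and the ZIP10-negative library; bars are single libraries and lines are exact Poisson 95% intervals of the estimated reads. Hes1 was the most abundant of the 10 in both libraries, at 20.2 RPKM in ZIP10-positive cells, against 10.9 RPKM in ZIP10-negative cells, and Jag2 differed most, at 15.6 RPKM in ZIP10-positive cells, against 4.78 RPKM in ZIP10-negative cells.

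The order of the levels differed between the libraries, most of all in the place of Jag2. In ZIP10-positive cells the order from the top was Hes1, Jag2, Jag1, Notch3, Notch1, Hey1, Rbpj, Notch2, Dll1 and Maml1. In ZIP10-negative cells it was Hes1, Notch3, Jag1, Notch1, Jag2, Hey1, Notch2, Rbpj, Maml1 and Dll1. Of the 9 pairs of neighbours in ZIP10-positive cells, Poisson intervals overlapped in 7 and were separate in 2, between Jag2 and Jag1 and between Notch2 and Dll1. In ZIP10-negative cells the intervals of all 9 pairs overlapped. Jag2 stood at percentile 73.9 of the genes above 0 in ZIP10-positive cells and at 62.1 in ZIP10-negative cells, a rank that does not depend on a common scale factor. Notch3 had the opposite order, at percentile 64.5 in ZIP10-positive and 76.8 in ZIP10-negative cells. The other genes at lower percentiles in ZIP10-positive than in ZIP10-negative cells included Notch1, at 63.0 in ZIP10-positive and 72.0 in ZIP10-negative cells, and Jag1, at 65.6 in ZIP10-positive and 75.1 in ZIP10-negative cells.

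The 3 receptors had near-equal or modestly higher levels in ZIP10-positive cells. Notch1, a receptor of keratinocytes and of T cell precursors, stood at 9.17 RPKM in ZIP10-positive cells, against 7.30 RPKM in ZIP10-negative cells, a ratio of 1.26 with a counting interval of 1.03 to 1.53 from 237 ZIP10-positive and 184 ZIP10-negative reads. Notch2, a broadly expressed receptor, stood at 5.54 RPKM in ZIP10-positive cells, against 3.11 RPKM in ZIP10-negative cells, a ratio of 1.78 with an interval of 1.36 to 2.34 from 159 ZIP10-positive and 87 ZIP10-negative reads. Notch3, best known from vascular smooth muscle and pericytes, stood at 9.88 RPKM in ZIP10-positive cells, against 9.28 RPKM in ZIP10-negative cells, a ratio of 1.07 with an interval of 0.873 to 1.30 from 213 ZIP10-positive and 195 ZIP10-negative reads. The intervals of Notch1 and Notch3 lay wholly below the median gene's ratio of 1.97, and that of Notch2 held it. Relative to the median gene the log2 ratios were -0.58 for Notch1, -0.12 for Notch2 and -0.80 for Notch3, and all stayed below 0 under the other scales tried except that of transcript length, where Notch1 and Notch2 lay above 0. Notch4, a receptor of endothelial cells and no member of the 10, stood at only 0.168 RPKM in ZIP10-positive cells, against 0.0575 RPKM in ZIP10-negative cells, about 3 reads in ZIP10-positive cells and 1 read in ZIP10-negative cells.

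Within the receptor sum, whose shares do not depend on the scaling between libraries, Notch1 held the same place. The RPKM of Notch1 to Notch4 summed to 24.8 in ZIP10-positive and 19.7 in ZIP10-negative cells. Notch1 made up 37.0% of that sum in both libraries. Notch2 made up 22.4% in ZIP10-positive and 15.8% in ZIP10-negative cells, and Notch3 made up 39.9% in ZIP10-positive and 47.0% in ZIP10-negative cells. The ratio of Notch2 exceeded that of Notch3 by a factor of 1.67, with a counting interval of 1.19 to 2.35, and that of Notch1 by 1.42, with an interval of 1.01 to 1.99.

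Among the ligands, Jag2 and Jag1 parted. Jag2, a Jagged ligand, stood at 15.6 RPKM in ZIP10-positive cells, against 4.78 RPKM in ZIP10-negative cells. Its ratio was 3.26, with a counting interval of 2.36 to 4.56 that lay wholly above the median gene. Those bounds rest on 167 ZIP10-positive and 50 ZIP10-negative reads, the fewest whole numbers that give the ratio, while the annotated length gave about 212 ZIP10-positive and 63.6 ZIP10-negative reads. Jag2 was the only one of the 10 that stayed above 0 under every scaling tried, at log2 ratios of 0.65 relative to the median gene, 0.34 when the sum outside the 50 most abundant genes set the scale, and 0.28 when the sum without globins and the ribosomal RNA precursor Rn45s did. It was not 2-fold higher under any of those 3 scalings.

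Jag1, the other Jagged ligand, stood at 10.4 RPKM in ZIP10-positive cells, against 8.49 RPKM in ZIP10-negative cells, a ratio of 1.22 with an interval of 0.958 to 1.56 from 153 ZIP10-positive and 122 ZIP10-negative reads. That interval lay below the median gene, and the log2 ratio relative to it was -0.62. Dll1, a Delta-like ligand, was scarce at 2.56 RPKM in ZIP10-positive cells, against 1.14 RPKM in ZIP10-negative cells. Its ratio of 2.24 rested on 23 ZIP10-positive and 10 ZIP10-negative reads, and its interval of 1.03 to 5.28 held the median gene. Its log2 ratio was 0.12 relative to the median gene and -0.10 when the sum outside the 50 most abundant genes set the scale. The other Delta-like ligand genes of the pathway, Dll3 and Dll4, were listed at 0 in both libraries, and such a 0 need not mean absence, since the estimate may have failed.

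The ligand shares turned over between the populations. The RPKM of Jag1, Jag2, Dll1, Dll3 and Dll4 summed to 28.5 in ZIP10-positive and 14.4 in ZIP10-negative cells. Jag2 made up 54.6% of the sum in ZIP10-positive and 33.2% in ZIP10-negative cells, while Jag1 made up 36.4% in ZIP10-positive and 58.9% in ZIP10-negative cells. The ratio of Jag2 exceeded that of Jag1 by a factor of 2.66, with a counting interval of 1.76 to 4.05. This was the largest of 8 such factors, formed for every pair of genes with the same role, and 4 of the 8 had intervals that excluded 1. No such count was made for pairs of other genes. Dll1 made up 8.98% in ZIP10-positive and 7.92% in ZIP10-negative cells.

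The 2 nuclear effectors differed from each other. Rbpj, the DNA-binding partner of the cleaved receptor, has related sequences elsewhere in the mouse genome that can share its reads. It stood at 5.92 RPKM in ZIP10-positive cells, against 2.70 RPKM in ZIP10-negative cells, a ratio of 2.20. The lengths of its annotated transcripts pointed to about 87 ZIP10-positive and 38 ZIP10-negative reads, for an interval of 1.51 to 3.36. Rbpj lay just above the median gene, at a log2 ratio of 0.13, and below it, at -0.15, when the sum outside the 50 most abundant genes set the scale. Maml1, a Mastermind coactivator, stood at 1.75 RPKM in ZIP10-positive cells, against 1.79 RPKM in ZIP10-negative cells, from about 26 reads in each, and its interval of 0.544 to 1.75 lay below the median gene. The ratio of Rbpj exceeded that of Maml1 by a factor of 2.25, with an interval of 1.11 to 4.68.

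Both targets were higher as deposited and below the median gene. Hes1, a repressor that follows Notch signals in many tissues, stood at 20.2 RPKM in ZIP10-positive cells, against 10.9 RPKM in ZIP10-negative cells. Its ratio was 1.85 with an interval of 1.22 to 2.83 from 70 ZIP10-positive and 37 ZIP10-negative reads, and its log2 ratio relative to the median gene was -0.09. Hey1, a repressor of the related HEY family, stood at 6.10 RPKM in ZIP10-positive cells, against 4.23 RPKM in ZIP10-negative cells. Its ratio was 1.44 with an interval of 0.825 to 2.56 from 34 ZIP10-positive and 23 ZIP10-negative reads, and its log2 ratio relative to the median gene was -0.38. Both intervals held the median gene, and the ratios of Hes1 and Hey1 did not differ beyond counting error, with a factor of 1.28 and an interval of 0.623 to 2.61.

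**Figure D2:**
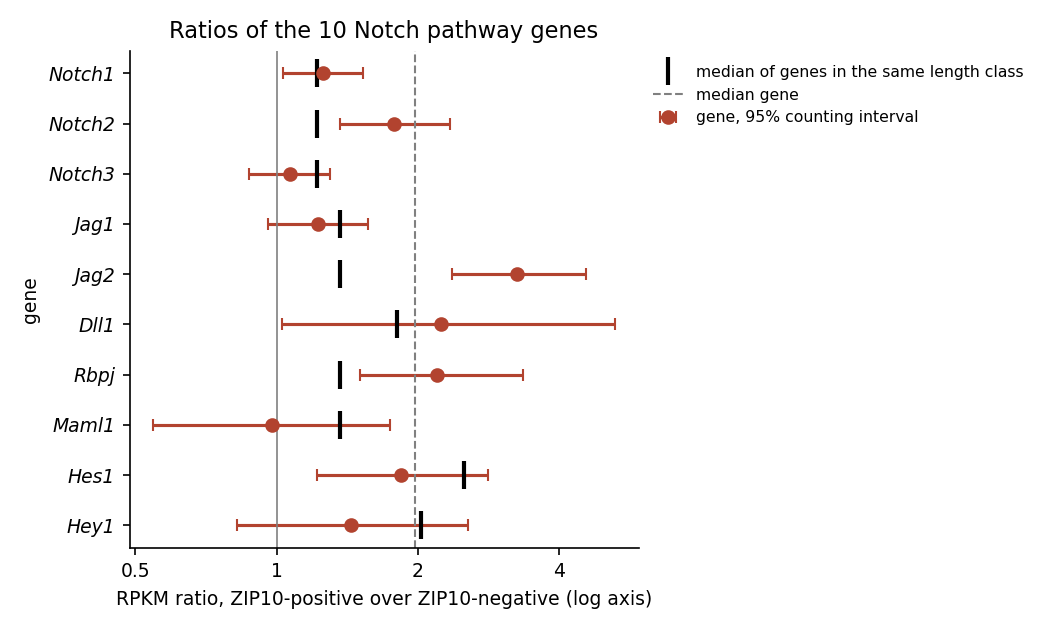
RPKM ratio of each gene, ZIP10-positive over ZIP10-negative, on a log axis; lines are exact 95% counting intervals, the dashed line is the median gene at 1.97 and each black mark is the median of genes in the same length class. Jag2 at 3.26 lies to the right of both, while Notch1, Notch3, Jag1 and Maml1 lie to the left of the dashed line with their whole intervals.

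Transcript length moved with the ratio across the whole table. Among genes with at least 1 RPKM in both libraries, the median log2 ratio was 1.75 for 636 genes under 1000 bases, 1.02 for 2154 genes of 2000 to 3000 bases, 0.45 for 790 genes of 5000 to 7000 bases and 0.29 for 420 genes of 7000 bases or more. It fell from class to class in the same way among genes of 1 to 20 RPKM, at 1.67 in the shortest and 0.28 in the longest class. The Notch pathway genes were long, with a median annotated length of 5489 bases, beside 2721 bases for genes at 1 RPKM or more in both libraries. The part of length in the ratios of single genes was not tested.

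Measured against the median of their own length class, the 10 genes divided evenly, with 5 above and 5 below. Their median log2 ratio was then -0.05, beside 0.09 over the genes compared. Jag2 was 2-fold higher on that scale, at 1.12, where 11.5% of genes were 2-fold higher and 10.1% were 2-fold lower. The counting intervals of Notch2, Jag2 and Rbpj lay wholly above their class, those of the other 7 held it, and none lay below. How many of all genes had intervals clear of their class was not counted, so these 3 are a description only. Notch1, at 0.04, Notch3, at -0.18, and Jag1, at -0.14, came close to their class, although they had lain 0.58 to 0.80 below the median gene of all lengths. Hes1, a short transcript, moved the other way, to -0.42.

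**Figure D3:**
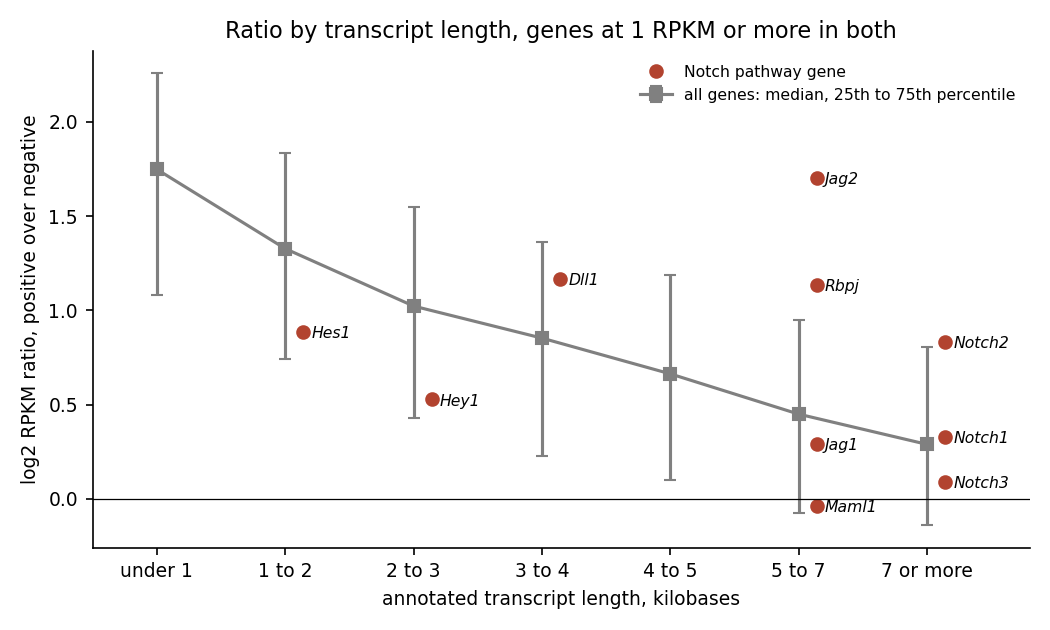
Log2 RPKM ratio, ZIP10-positive over ZIP10-negative and without a pseudocount, by class of annotated transcript length; grey squares and lines are the median and the 25th to 75th percentile of all genes at 1 RPKM or more in both libraries, and red points are the Notch pathway genes. The medians fall with length, to 0.29 in the longest class, and Jag2, Rbpj and Notch2 lie above the 75th percentile of their class.

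A further 46 pathway genes were listed by role, and 38 reached 1 RPKM in a library. Of the 38, Aph1c, Fbxw7, Dtx1 and Maml3 did so only in ZIP10-positive cells, and such genes could only come out higher. Neurl1a did not pass and was lower, at 0.103 RPKM in ZIP10-positive cells, against 0.212 RPKM in ZIP10-negative cells. As deposited all 38 were higher in ZIP10-positive cells, but the share of all genes that were higher was not counted. Of the 38, 12 were at least 2-fold higher, against the 44.1% of all genes given above, with a median of 0.86 beside 0.87. Relative to the median gene 22 lay above and 16 below it, 1 was 2-fold higher and none 2-fold lower. With the sum outside the 50 most abundant genes as the scale the split was 11 above and 27 below. On that scale the median log2 ratio was -0.20 for the 38 and -0.19 over all genes compared. The median of the longer list thus lay near that of the whole table, and the direction of single members near the median gene depended on the scale.

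Of 10 genes for the processing of receptors and ligands, 5 were at least 2-fold higher as deposited, near the 44.1% of all genes. Relative to the median gene none was, where 14.7% of all genes were. Among the 5 were Aph1a, Psen2, Ncstn and Aph1b, encoding gamma-secretase subunits. Aph1a stood at 90.6 RPKM in ZIP10-positive cells, against 32.1 RPKM in ZIP10-negative cells, and Ncstn stood at 40.0 RPKM in ZIP10-positive cells, against 17.8 RPKM in ZIP10-negative cells. Psen2 stood at 18.4 RPKM in ZIP10-positive cells, against 6.98 RPKM in ZIP10-negative cells. Aph1b stood at 3.42 RPKM in ZIP10-positive cells, against 1.10 RPKM in ZIP10-negative cells, and since the near-identical Aph1c can share its reads both are uncertain. Psenen, another subunit gene and the most abundant gene of the role, stood at 126 RPKM in ZIP10-positive cells, against 67.7 RPKM in ZIP10-negative cells. Its log2 ratio was -0.08 relative to the median gene and -0.84 against its length class, that of genes under 1000 bases. Relative to the median gene 7 of the 10 genes of the role lay above 0 and 3 below, with a median log2 ratio of 0.29. Against their length classes 7 also lay above 0 and 3 below.

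Among glycosyltransferases, which modify the receptor's EGF-like repeats, 3 of 5 were 2-fold higher as deposited, where 44.1% of all genes were. Relative to the median gene none of the 5 was 2-fold higher, where 14.7% of all genes were. Lfng, a Fringe enzyme that alters the response to ligands, stood at 18.0 RPKM in ZIP10-positive cells, against 4.96 RPKM in ZIP10-negative cells. Its ratio was 3.62 with a counting interval of 2.37 to 5.71, and its log2 ratio relative to the median gene was 0.79. Poglut1, an O-glucosyltransferase, stood at 22.4 RPKM in ZIP10-positive cells, against 6.95 RPKM in ZIP10-negative cells, and Pofut1, the O-fucosyltransferase on which Fringe acts, stood at 8.11 RPKM in ZIP10-positive cells, against 2.59 RPKM in ZIP10-negative cells. All of these stayed above 0 under every scaling tried. Rfng, another Fringe gene, stood at 13.7 RPKM in ZIP10-positive cells, against 10.2 RPKM in ZIP10-negative cells and lay below the median gene, at -0.51.

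Of 12 ubiquitin ligases and endocytic regulators 11 were compared and 1 was 2-fold higher as deposited, where 44.1% of all genes were. This was Dtx3, a Deltex gene and the most abundant of the role, at 18.8 RPKM in ZIP10-positive cells, against 8.46 RPKM in ZIP10-negative cells. None of the 7 nuclear cofactors compared was 2-fold apart, and their median relative to the median gene was -0.40; the most abundant, Snw1, which encodes the SKIP protein, stood at 25.2 RPKM in ZIP10-positive cells, against 18.5 RPKM in ZIP10-negative cells. Dlk2, a Delta-like homologue that lacks the receptor-activating domain, stood at 4.33 RPKM in ZIP10-positive cells, against 1.11 RPKM in ZIP10-negative cells, from about 16 ZIP10-positive and 4 ZIP10-negative reads.

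**Figure D4:**
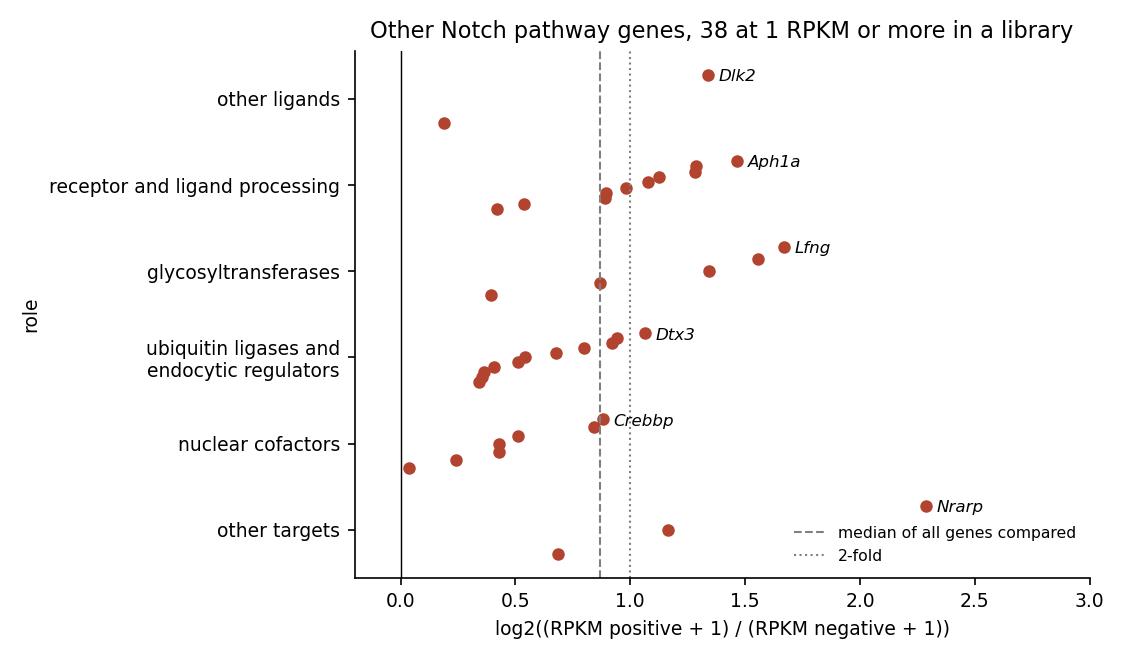
Log2((RPKM in ZIP10-positive + 1)/(RPKM in ZIP10-negative + 1)) of 38 other Notch pathway genes by role, with the highest of each role named; the dashed line is the median of all genes compared, 0.87, and the dotted line marks 2-fold. Nrarp lies farthest to the right, at 2.29, and all 38 points lie above 0, as does the median of all genes compared. Some of the 38 reached 1 RPKM only in ZIP10-positive cells and could lie nowhere else.

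The other Notch targets were led by Nrarp, which encodes a feedback inhibitor of the Notch intracellular domain. Nrarp stood at 35.7 RPKM in ZIP10-positive cells, against 6.52 RPKM in ZIP10-negative cells, a ratio of 5.48 with a counting interval of 3.93 to 7.80 from about 236 ZIP10-positive and 42 ZIP10-negative reads. Relative to the median gene it was the 1 gene of the longer list past 2-fold, at a log2 ratio of 1.38, and it stood at 1.34 against its length class and 0.99 on the scale without globins and Rn45s. Hey2, a repressor of the HEY family like Hey1 and Heyl, was the most abundant of the 6 HES and HEY genes listed (Hes1, Hes5, Hes7, Hey1, Hey2 and Heyl) in both libraries, at 27.1 RPKM in ZIP10-positive cells, against 11.5 RPKM in ZIP10-negative cells, and its log2 ratio of 0.24 relative to the median gene turned to -0.09 when the sum outside the 50 most abundant genes set the scale. Heyl stood at 4.98 RPKM in ZIP10-positive cells, against 2.72 RPKM in ZIP10-negative cells. Hes5 and Hes7 were listed at 0 in both. The 6 HES and HEY genes listed summed to 58.4 RPKM in ZIP10-positive cells, against 29.4 RPKM in ZIP10-negative cells, a ratio of 1.98. The ligand sum had the same ratio, close to the median gene, whereas the ratio of the receptor sum was 1.25. Notch1, Notch2 and Notch3 belong to the class of 7000 bases or more, whose median ratio was 1.22. The class of Jag1 and Jag2 had 1.37, that of Hes1 2.51 and that of Hey1 and Hey2 2.03. The part of length in these sums was not tested.

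Promoter windows are shown for Jag2 and Nrarp, which had the largest ratios of the 10 genes and of the longer list, and for Hey2 and Hes5, the targets with 2 matches to the RBPJ motif each, of which one was abundant and the other listed at 0. Each runs 5′ to 3′ on the gene's strand from 250 bases before to 30 bases after the RefSeq start, on GRCm38.p6, a later build than the mm9 named by the submitters. Capitals mark GTGGGAA, the core bound by RBPJ, or its reverse complement TTCCCAC.
Jag2: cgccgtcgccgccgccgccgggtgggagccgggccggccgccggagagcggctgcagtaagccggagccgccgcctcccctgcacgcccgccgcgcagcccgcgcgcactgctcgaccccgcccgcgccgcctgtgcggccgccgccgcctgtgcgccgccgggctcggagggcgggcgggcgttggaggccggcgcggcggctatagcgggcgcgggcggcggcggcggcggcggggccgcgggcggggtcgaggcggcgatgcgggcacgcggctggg
Nrarp: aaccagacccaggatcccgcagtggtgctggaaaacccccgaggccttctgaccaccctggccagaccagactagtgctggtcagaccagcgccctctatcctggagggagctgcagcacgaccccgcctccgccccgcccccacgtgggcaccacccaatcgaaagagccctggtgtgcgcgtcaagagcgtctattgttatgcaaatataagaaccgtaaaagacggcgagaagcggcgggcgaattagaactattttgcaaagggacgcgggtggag
Hey2: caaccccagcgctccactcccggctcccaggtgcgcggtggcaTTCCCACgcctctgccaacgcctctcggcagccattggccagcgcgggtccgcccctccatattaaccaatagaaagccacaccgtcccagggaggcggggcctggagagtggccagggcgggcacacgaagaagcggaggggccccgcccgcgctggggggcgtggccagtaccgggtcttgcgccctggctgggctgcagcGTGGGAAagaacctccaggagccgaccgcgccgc
Hes5: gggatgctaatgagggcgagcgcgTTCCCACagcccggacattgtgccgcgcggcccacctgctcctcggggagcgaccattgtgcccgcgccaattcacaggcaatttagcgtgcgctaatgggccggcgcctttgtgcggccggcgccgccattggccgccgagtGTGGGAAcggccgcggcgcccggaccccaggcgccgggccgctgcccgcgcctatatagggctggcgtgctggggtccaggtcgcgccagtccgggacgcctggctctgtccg
The windows lie at chr12:112929466-112929745 on the minus strand for Jag2, chr2:25180508-25180787 on the plus strand for Nrarp, chr10:30842754-30843033 on the minus strand for Hey2 and chr4:154960673-154960952 on the plus strand for Hes5. In Hey2 the matches begin at -207 on the reverse and at -4 on the forward strand relative to the start, and in Hes5 at -226 on the reverse and at -83 on the forward strand. Of all 32851 windows, 5.94% held a match on either strand. Of the 10 genes 8 had a window, all but Hes1 and Hey1, and none of the 8 held a match. In the longer list 37 genes had a window and 7 of them held a match, namely Psen2, Aph1a, Lfng, Spen, Hes5, Hes7 and Hey2, or 18.9%, beside 6.74% of all genes with a window. A match describes the letters of the window and is no evidence of binding.

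Marker genes of several lineages were present in both libraries. Basal keratinocyte markers (Krt5, Krt14, Krt15, Itga6 and Col17a1) summed to 2258 RPKM in ZIP10-positive cells, against 760 RPKM in ZIP10-negative cells, and 4 of 5 were 2-fold higher as deposited, where 44.1% of all genes were, but 1 of 5, Krt5, relative to the median gene. Suprabasal markers (Krt1, Krt10, Sbsn and Lor) went both ways and summed to 56.7 RPKM in ZIP10-positive cells, against 48.2 RPKM in ZIP10-negative cells, a ratio of 1.18. Sbsn was 2-fold higher as deposited, whereas Krt10 stood at 11.0 RPKM in ZIP10-positive cells, against 31.1 RPKM in ZIP10-negative cells, a log2 ratio of -2.33 relative to the median gene. Markers of hair matrix, inner root sheath and shaft summed to 761 RPKM in ZIP10-positive cells, against 375 RPKM in ZIP10-negative cells, a ratio of 2.03 that is close to the median gene. Pericyte and smooth muscle markers, the cells for which Notch3 is known, summed to 80.1 RPKM in ZIP10-positive cells, against 50.2 RPKM in ZIP10-negative cells, with 1 of 6, Acta2, at least 2-fold higher as deposited. Acta2 carried this sum, at 47.9 RPKM in ZIP10-positive cells, against 16.8 RPKM in ZIP10-negative cells. Set against the median gene, none of the 6 reached 2-fold higher and 2 were 2-fold lower, Rgs5 at -1.03 and Pdgfrb at -1.16. On that scale 14.7% of all genes were 2-fold higher and 11.4% were 2-fold lower. The ratio of the sums was 2.23 for dermal papilla, 1.19 for dermal fibroblast and 1.47 for melanocyte markers, but single markers went both ways. Relative to the median gene 1 of 5 dermal papilla markers was 2-fold higher, Crabp1 at 1.03, and 1 lower, Corin at -1.05. Of 6 fibroblast markers 1 was 2-fold higher, Lum at 1.22, and 1 lower, Col1a1 at -1.74. Of 5 melanocyte markers none was 2-fold higher and 1 was lower, Tyrp1 at -1.13. Endothelial markers were near 0 in both, at a sum of 4.74 RPKM in ZIP10-positive cells, against 1.60 RPKM in ZIP10-negative cells over 6 genes, with Emcn listed at 0 in both and Tek in ZIP10-negative cells.

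Leukocyte and red cell markers differed most between the libraries. Over all genes compared, 44.1% were 2-fold higher and 3.55% 2-fold lower as deposited, and 14.7% and 11.4% were so relative to the median gene. T cell markers summed to 82.9 RPKM in ZIP10-positive cells, against 599 RPKM in ZIP10-negative cells, with 4 of 4 at least 2-fold lower, also relative to the median gene. Macrophage markers summed to 344 RPKM in ZIP10-positive cells, against 49.3 RPKM in ZIP10-negative cells, with 4 of 5 at least 2-fold higher as deposited and 3 relative to the median gene, and mast cell markers to 296 RPKM in ZIP10-positive cells, against 12.1 RPKM in ZIP10-negative cells, with 4 of 4 higher on both scales. Erythrocyte markers summed to 16374 RPKM in ZIP10-positive cells, against 283655 RPKM in ZIP10-negative cells. The part of these cell types in the levels of the Notch pathway genes was not tested, and in bulk RNA a difference in the number of cells of a type cannot be told apart from a difference in RNA per cell.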

How the data were processed

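RNA from 1 library of ZIP10-positive and 1 of ZIP10-negative cells was compared. Per the labels' protocols, 10 ng of total RNA was made into libraries that were sequenced as single reads of 50 bases. The authors deposited 1 table of RPKM values per gene symbol; the unit comes from the table's name. Per the submitters' processing notes, cutadapt, TopHat and Cufflinks were used with mm9; their versions, the annotation and strand use are not stated there. Rbpj, Aph1b and Aph1c have related sequences in the genome, so their values are uncertain.

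Genes with 1 RPKM or more in a library were compared, 12249 in all, as log2((positive + 1)/(negative + 1)), and those past 2-fold were counted. The median gene is the median log2 ratio of 9620 genes that reached 1 RPKM in each library, and the shift was divided between the libraries before the pseudocount was added. Read numbers were estimated as follows. Of 1389 scarce genes, above 0 and up to 1 RPKM in each library, 64.9% had values in a ratio of whole numbers up to 20 times 0.975, at a tolerance of 0.0015%, and none did when that number was moved by 0.3%. Of 1449 genes up to 1 RPKM in ZIP10-positive cells with 1 annotated length, 35.0% lay within 1.4% of the most frequent depth, with GENCODE vM21 lengths (GRCm38, used for lengths only) and an assumed fragment offset of 199 bases. For 8 of the 10 genes a whole-number pair lay within 10% of the read number from length. Intervals are exact binomial for ratios, exact Poisson for levels and conditional for factors between ratios, all at 95%; reads carry no molecular identifiers.

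The members and gene lists were chosen with earlier results of these data known. Named from the longer list are genes past 2-fold and the most abundant of each role. Others were named after their values were seen: Rfng, Dll3, Dll4, Heyl, Hes5, Hes7, Aph1c, Fbxw7, Dtx1, Neurl1a, Maml3, Cir1 and the genes with a promoter match. A gene that this rule would name is not reported here, and counts over the list include it. Since 2 libraries give each gene 1 ratio, no genes were ranked by likeness. The length classes were added after the data were seen. Length was the median of a gene's RefSeq-linked transcripts, available for 8597 of the 9620 genes and for all 10 members. Promoter windows are from RefSeq. Scripts ran in Python 3.11.15 with pandas 2.3.3, numpy 2.4.6, scipy 1.17.1 and matplotlib 3.10.9 and were tested on simulated data.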

Additional observations from a re-analysis of the deposited data

How the results depend on the processing

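With 1 library per population no library could be left out. No paired analysis was possible because each group has 1 library. Of the 10 genes, 3 in place of 1 were at least 2-fold higher as deposited with a pseudocount of 0.1, where 52.7% of all genes were, and of the 38 others 20 in place of 12, or 4 with a pseudocount of 5, where 22.7% of all genes were. Relative to the median gene, 3 of the others in place of 1 were 2-fold higher with a pseudocount of 0.1, where 20.6% of all genes were. Scaling to genes outside the 50 most abundant moved the zero point to a log2 ratio of 1.33 and made 1 of the 10, Notch3 at -1.12, at least 2-fold lower, where 17.6% of all genes were; scaling without globin genes and Rn45s moved it to 1.39, with 1 of the 10 lower, Notch3 at -1.18, and of the others 0 higher and 1 lower, Cir1 at -1.01, beside 8.99% of all genes higher and 19.2% lower. In both, 9 of the 10 lay below 0, all but Jag2. The median over all genes compared was also below 0 there. With the scale outside the 50 most abundant genes it was -0.19, beside -0.54 for the 10 genes. Without globin genes and Rn45s it was -0.24, beside -0.60 for the 10 genes. Against genes of the same length class, chosen after the data were seen, 1 of the 10 was 2-fold higher, in place of 0 against the median gene of all lengths. A filter at 5 RPKM left 8 of the 10 genes, and neither it nor having no filter moved a count of the 10 genes. Depth limits Dll1, Maml1 and Hey1 most, with 10 to 34 estimated reads per library.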
